A study of Mus musculus with 6 samples.

Results

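Nuclear genes for the subunits of the respiratory chain were compared between WT and Nrf2 knockout cultures of mouse bone marrow stromal/stem cells. Table rows were taken whose symbol begins with Nduf followed by a, b, c, s or v, with Uqcr, with Cox4 to Cox8 or with Atp5, or is Sdha, Sdhb, Sdhc or Sdhd, and whose counts over the 6 libraries sum to at least 60. This gave 94 of 55401 rows, out of 112 rows that match by name. Of the 94 rows, 80 are protein-coding subunits (36 of complex I, 4 of complex II, 8 of complex III, 15 of complex IV and 17 of complex V), 8 are complex I assembly factors and 6 are pseudogene or noncoding rows, among them Cox5b-ps, which the annotation types as protein coding and which was placed here by its symbol. The least abundant members were Ndufa4l2 with 60 counts and Ndufb4c with 110 counts, and the rows just below the minimum were Ndufs5-ps with 42 counts and Cox4i2 with 39 counts. Ndufa4 and Ndufa4l2 were placed in complex IV, where the NDUFA4 protein is found, although their names are of the complex I series.

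The study sequenced RNA from 3 libraries of WT cells and 3 of Nrf2 knockout cells, all grown in DMEM with 10% fetal bovine serum. The labels give no strain, age, sex or knockout allele, and do not say whether a library stands for an animal or a culture. The 3 knockout columns share a middle 1 in their names, which no label explains, so they may come from 1 source. Each p-value is thus about variation among these libraries alone, part of which may be technical.

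Complexes I to IV of the inner mitochondrial membrane pass electrons from NADH and succinate to oxygen, and complexes I, III and IV pump protons as they do so. Complex V, the ATP synthase, lets the protons flow back and makes ATP. Most subunits are encoded in the nucleus and imported, while a small core set is encoded by mitochondrial DNA, so all complexes but complex II are built from 2 genomes. NRF2, the product of Nfe2l2, is a transcription factor of the antioxidant response, which binds antioxidant response elements. It is a different protein from nuclear respiratory factor 1, the product of Nrf1, and from GABP, an older name of which is also nuclear respiratory factor 2, and it is those proteins that are known as activators of respiratory chain genes.

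Library totals ran from 18381114 to 21323839 counts. Nfe2l2, the deleted gene, had between 159 and 197 CPM in WT libraries and 5.85 to 7.21 CPM in those of the knockout, where CPM is the count as a share of the library total, scaled to 1000000 and corrected for library composition by TMM factors. Across all genes 13184 passed the filter on low counts and 4333 of them (32.9%) passed edgeR's quasi-likelihood test at a Benjamini-Hochberg adjusted p under 0.05 in either direction, 14.1% higher and 18.7% lower in knockout. The cultures also differed in cell type markers. Summed stromal and mesenchymal markers were at 10041, 20477 and 28217 CPM in WT replicates 1, 2 and 3 and at 4504 to 4747 CPM in knockout, with 15 of 18 tested markers lower and none at 0 in all knockout libraries. The 18 tested markers had a median log2 fold change, knockout over WT, of -5.94, and 1 was positive. The typical marker thus fell far more steeply than the sum. Summed macrophage and monocyte markers ran from 20244 to 26960 CPM in WT and, in knockout, from 22977 to 25150 CPM, with 6 of 20 markers higher and 1 lower. RNA of the stromal list was thus measured in both genotypes, in unequal amounts and beside macrophage RNA. Its part in the values below was not tested, nor was how specific the listed markers are to stromal cells. In these bulk libraries fewer cells of a type and less RNA per cell cannot be told apart.

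The respiratory chain as a whole stood close to its WT level in the knockout. Of the 80 subunits 79 passed the filter, and 6 of them were called higher in knockout (7.59%, where 14.1% of all tested genes were), while none was called lower (18.7% of all tested genes). The 6 were Ndufs8, Ndufs4 and Ndufb10 of complex I, Cox5a and Cox6a2 of complex IV, and Atp5k of complex V. Of these Cox6a2, with 32 counts in WT and 118 in knockout, met the count minimum for a member only through its knockout libraries. At an unadjusted p under 0.05 there were 18 of the 79, all higher in knockout, where 5855 of all 13184 tested genes had such a p in either direction. DESeq2 called 7 of 80 (8.75%, where 21.4% of all genes in that fit were). Of these 6 were higher and 1, the sparsely counted Ndufa4l2, lower. The log2 fold change (knockout over WT throughout) was positive for 61 subunits and negative for 18, with a median of 0.11 against -0.01 over all tested genes. Between the 5th and 95th percentiles the subunits ran from -0.07 to 0.32 and all tested genes from -4.39 to 0.94. All tested subunits other than Cox6a2, 78 of 79 (98.7%), changed by less than 1.5-fold in either direction, against 71.8% of all tested genes. In simulated counts the fit called only 16.42% of 1.5-fold changes, so the lack of a call does not show an equal level.

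For 22 of the 79 subunits (27.8%) every knockout library was above every WT library, where 24.9% of all tested genes had that order. For 1 subunit (1.27%), Ndufab1, every knockout library was below every WT library, against 25.9% of all tested genes. Together 29.1% of the subunits were free of overlap, against 50.9% of all tested genes, and for the other 56 the genotypes overlapped. Summed over all 80 subunits the level was 7725, 7626 and 7242 CPM in WT and 7894, 8747 and 7893 CPM in knockout, a ratio of means of 1.09. The sum was above every WT library in each knockout library, but the gap between WT replicate 1 and knockout replicate 3 was small beside the SDs of 255 CPM in WT and 493 CPM in knockout (n = 3 each).

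**Figure D1:**
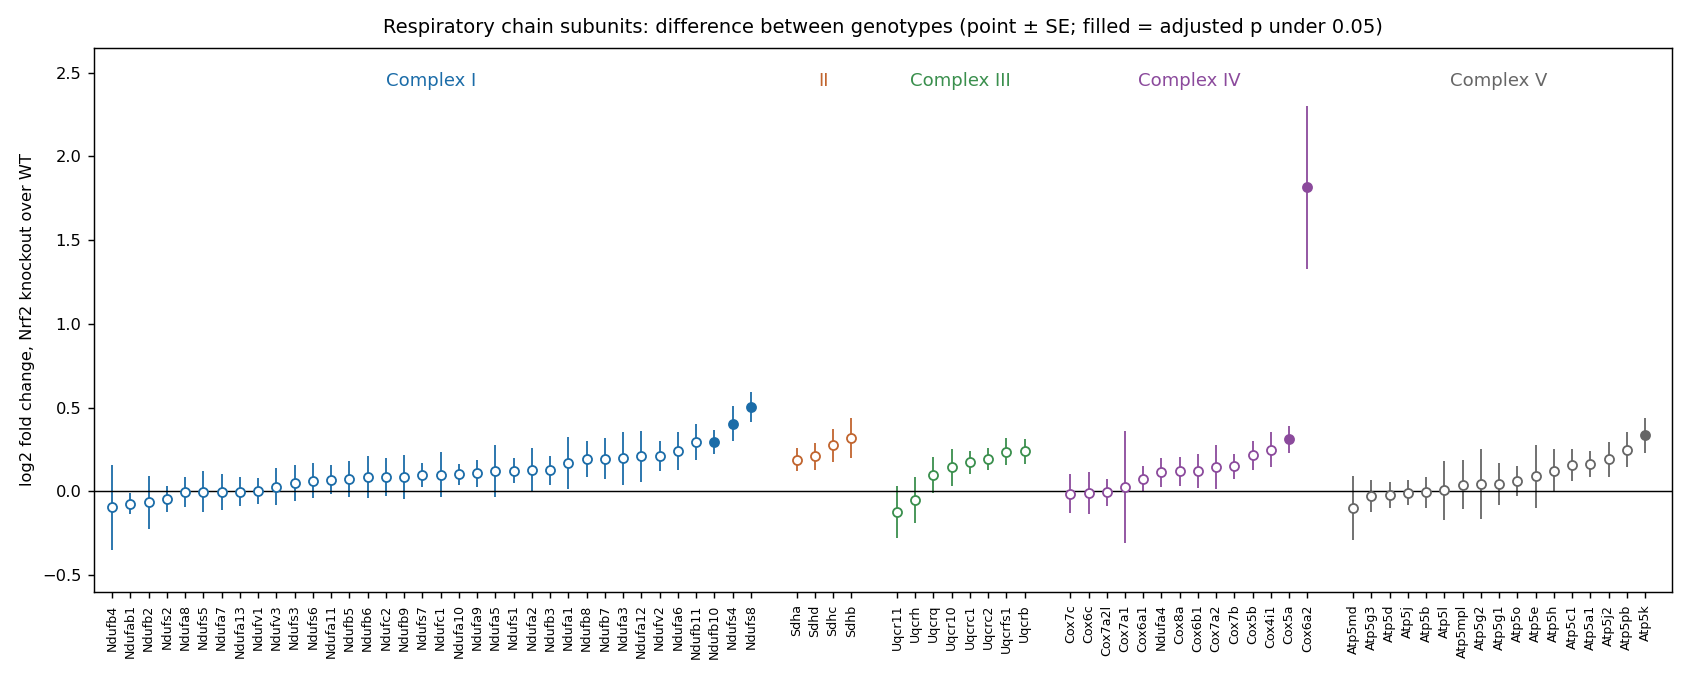
Log2 fold change, knockout over WT, of the 79 tested subunits (vertical axis), grouped by complex I to V and ordered within each complex (horizontal axis). Points are edgeR estimates with SE bars, and filled points are the 6 subunits with an adjusted p under 0.05. Most points lie between 0 and 0.3, and Cox6a2, at 1.82, is the only one beyond 1.5-fold.

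The sequences around the transcription starts of 4 subunits are shown: Ndufs8 as the steadiest call, and Ndufs4, Sdha and Atp5k because they hold motifs that other starts of respiratory chain genes share. They are RefSeq windows of GRCm38.p6, from 250 bases before to 50 bases after the annotated start, each read 5′ to 3′ on the gene's own strand, which is minus for all 4. Capitals mark a match to a searched motif on either strand. Ndufs8 is at chr19:3912725-3913024, Ndufs4 at chr13:114388045-114388344, Sdha at chr13:74350191-74350490 and Atp5k at chr5:108434350-108434649.
Ndufs8: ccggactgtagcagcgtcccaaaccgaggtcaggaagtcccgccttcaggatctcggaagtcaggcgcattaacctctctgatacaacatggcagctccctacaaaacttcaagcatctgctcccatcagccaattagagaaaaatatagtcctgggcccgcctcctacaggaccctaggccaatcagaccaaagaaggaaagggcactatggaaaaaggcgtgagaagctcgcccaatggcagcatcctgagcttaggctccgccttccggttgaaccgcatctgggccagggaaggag
Ndufs4: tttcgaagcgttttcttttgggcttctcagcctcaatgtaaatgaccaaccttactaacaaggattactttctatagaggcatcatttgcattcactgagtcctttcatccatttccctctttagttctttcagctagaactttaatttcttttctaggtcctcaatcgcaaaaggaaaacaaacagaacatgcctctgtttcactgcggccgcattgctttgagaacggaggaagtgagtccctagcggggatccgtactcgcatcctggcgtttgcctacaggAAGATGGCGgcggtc
Sdha: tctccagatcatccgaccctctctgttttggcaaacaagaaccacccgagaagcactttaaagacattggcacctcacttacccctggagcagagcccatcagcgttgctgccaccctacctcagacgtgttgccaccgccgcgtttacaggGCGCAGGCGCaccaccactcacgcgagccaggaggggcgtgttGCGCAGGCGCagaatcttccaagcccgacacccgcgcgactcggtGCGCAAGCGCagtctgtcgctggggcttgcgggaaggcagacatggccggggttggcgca
Atp5k: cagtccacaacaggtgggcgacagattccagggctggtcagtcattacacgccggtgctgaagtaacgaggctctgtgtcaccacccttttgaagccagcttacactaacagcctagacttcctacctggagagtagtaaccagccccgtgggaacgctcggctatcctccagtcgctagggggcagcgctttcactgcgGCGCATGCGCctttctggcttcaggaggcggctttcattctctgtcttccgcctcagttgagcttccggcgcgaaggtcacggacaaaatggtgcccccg
Windows were found for 66 of the 80 subunits, 71 windows in all. The nuclear respiratory factor 1 motif, written GCGCATGCGC in the Atp5k window with any base allowed at the fifth position, was in 18 windows (25.4%), against 4.6% of all 32851 RefSeq windows. The YY1 motif AAGATGGCG was in 7 windows (9.86%), against 1.4%. The GABP motif CCGGAAGT was in 5 windows (7.04%), against 3.89%. The core of the antioxidant response element, TGACNNNGC, was in 10 windows (14.1%), against 12.4%, and the TATA box letters TATAAA were in 7 windows (9.86%), against 13.6%. Each motif was searched on both strands and counted separately, so a window can hold several. Median GC content was 58.33% in subunit windows and 52.67% in all windows, and its part in these shares was not tested.

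Among the 5 called subunits that have a window, Atp5k held the nuclear respiratory factor 1 motif, from 50 to 41 bases before its start (shown in capitals above), and Ndufs4 held the YY1 motif, from base 36 to base 44 after its start. Ndufs8, Ndufb10 and Cox5a held none of the 5 motifs, and none of the 5 windows held the antioxidant response element core. Sdha, which was not called, held the nuclear respiratory factor 1 motif at 3 places. A match is only a match of letters in this window.

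Complex I, the NADH dehydrogenase, gave 3 of the 6 calls (8.33% of its subunits, where 14.1% of all tested genes were called higher). Of its 36 subunits 28 had a positive log2 fold change, the median was 0.10, and 6 (16.7%) had all knockout libraries above WT, against 24.9% of all tested genes. Without knockout replicate 2 the median was -0.0034, 18 of the 36 were positive and 1 was called (2.78%, where 20% of all genes in that fit were). Its summed level was 1785 ± 78.3 CPM (SD, n = 3) in WT against 1934 ± 162 CPM (SD, n = 3) in knockout. The 7 core subunits, which include the carriers of the flavin and iron-sulfur clusters, and the 29 accessory subunits had nearly the same median, 0.10 in each set, with 1 and 2 calls.

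Ndufs8 (ENSMUSG00000059734, chr19:3908863-3912774 on mm10, minus strand), a core iron-sulfur subunit of the matrix arm, had the smallest p of all subunits. It was at 47.2, 47.6 and 43.9 CPM in WT and at 65.0, 72.2 and 59.2 CPM in knockout. The lowest knockout library was well above the highest WT library. Its level was 41.7% higher (95% interval 22% to 64.6%; log2 fold change 0.50, SE 0.09, edgeR adjusted p = 0.0070). It stayed called when each library was left out in turn, with adjusted p from 0.0014 to 0.036.

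Ndufs4 (ENSMUSG00000021764, chr13:114287795-114388258, minus strand), an accessory subunit of the matrix arm whose loss in mice causes a fatal brain disease, was at 36.0, 30.4 and 32.6 CPM in WT and 41.0, 48.5 and 41.6 CPM in knockout. Its log2 fold change was 0.40 (SE 0.10; adjusted p = 0.024, edgeR). Ndufb10 (ENSMUSG00000040048, chr17:24722060-24724478, minus strand), an accessory subunit of the membrane arm, was at 60.9, 58.2 and 56.2 CPM in WT and 68.4, 75.8 and 70.8 CPM in knockout. Its log2 fold change was 0.30 (SE 0.07; adjusted p = 0.021, edgeR). Neither gene overlapped between genotypes, and both depended on single libraries. Without 1 library the adjusted p rose to as much as 0.093 for Ndufs4, without WT replicate 2, and 0.079 for Ndufb10, also without WT replicate 2. Leaving out any knockout library also ended both calls, as did leaving out WT replicate 3 for Ndufb10. With all libraries kept, scaling to the macrophage list ended both, with adjusted p of 0.092 for Ndufs4 and 0.19 for Ndufb10.

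The other complex I subunits were not called. Ndufb11, a membrane-arm subunit encoded on the X chromosome, was nearest, at 58.5, 55.2 and 47.5 CPM in WT and 61.3, 72.3 and 64.1 CPM in knockout (log2 fold change 0.30, SE 0.11, edgeR adjusted p = 0.071). Its genotypes did not overlap. Among the core subunits Ndufs1, which holds several iron-sulfur clusters of the matrix arm, had a log2 fold change of 0.12 (SE 0.07, edgeR adjusted p = 0.25). Ndufv1, the subunit that binds NADH and flavin, had 63.0 ± 3.49 CPM in WT against 63.1 ± 3.70 CPM in knockout (SD, n = 3 each), and the 95% interval of its difference ran from 11.8% lower to 13.9% higher. Ndufab1, the mitochondrial acyl carrier protein and also a complex I subunit, was at 61.1, 59.6 and 63.1 CPM in WT and 57.2, 58.7 and 58.5 CPM in knockout. The order of its libraries did not carry to the test (log2 fold change -0.08, SE 0.06, edgeR adjusted p = 0.40).

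Complex II, succinate dehydrogenase, is encoded wholly in the nucleus and is also an enzyme of the citric acid cycle. None of its 4 genes was called by edgeR, where 32.9% of all tested genes were. Their edgeR adjusted p ran from 0.071 to 0.086. All 4 had an unadjusted p under 0.05, as had 5855 of the 13184 tested genes. In all 4 every knockout library was above every WT library (100%, where 24.9% of all tested genes had that order). Its summed level was 591, 559 and 522 CPM in WT and 648, 674 and 645 CPM in knockout, 1.18 times the WT mean, the highest ratio of the 5 complexes. Sdha, the flavoprotein, was at 225, 225 and 227 CPM in WT and 255, 259 and 258 CPM in knockout. Its libraries were close together within each genotype (SD 1.08 and 1.84 CPM), and its log2 fold change was 0.19 (SE 0.07; adjusted p = 0.071, edgeR). DESeq2 called Sdha, with an adjusted p of 0.034 (25% of the 4 genes, where 21.4% of all genes in that fit were called). Sdhb, the iron-sulfur subunit, had the largest standard error of the 4, at 98.6, 88.7 and 75.0 CPM in WT and 102, 120.2 and 104 CPM in knockout (log2 fold change 0.32, SE 0.12).

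The membrane anchors, which bind ubiquinone, behaved likewise. Sdhc was at 144, 131 and 113 CPM in WT and 153, 162 and 154 CPM in knockout (log2 fold change 0.27, SE 0.10). Sdhd was at 124, 114 and 106 CPM in WT and 137, 133 and 129 CPM in knockout (log2 fold change 0.21, SE 0.08). In Sdhb, Sdhc and Sdhd the WT libraries fell in the order 1, 2, 3, and WT replicate 3 lay farthest from the knockout libraries. This is opposite to the order of the summed stromal markers and the same as that of the summed macrophage markers (26960, 22313 and 20244 CPM). It is not particular to these genes: among WT libraries replicate 1 was highest for 48 and replicate 3 lowest for 59 of the 79 subunits. The part of either marker list was not tested. Without WT replicate 1 edgeR called Sdhb, Sdhc and Sdhd higher (75% of the 4, where 23.1% of all genes in that fit were). Without knockout replicate 2 the median log2 fold change of the 4 genes was 0.23, against 0.24 with all libraries.

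**Figure D2:**
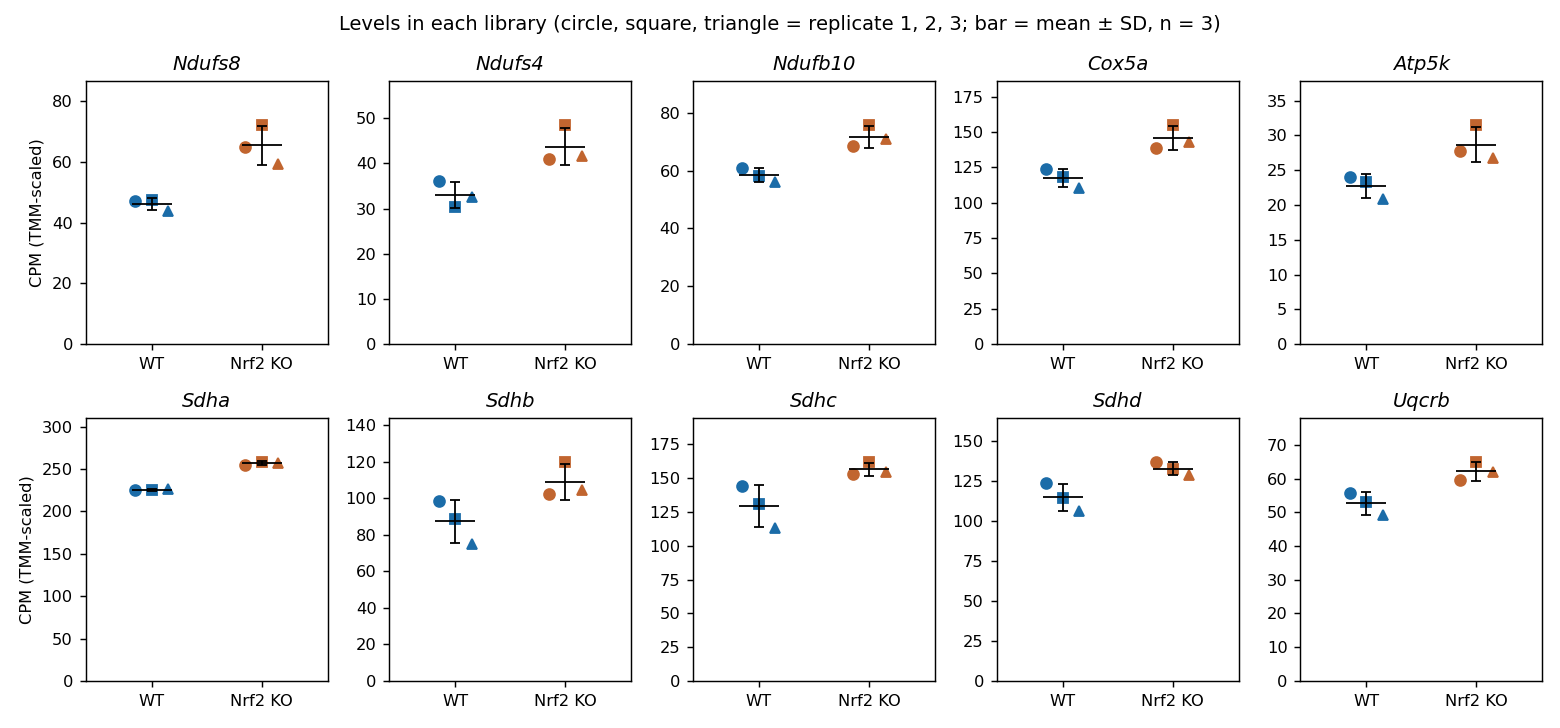
TMM-scaled CPM (vertical axes, from 0) in each library of WT (blue) and Nrf2 knockout (orange) for 10 subunits, with mean and SD bars (n = 3). All 10 are among the 22 of 79 subunits (27.8%) whose 3 knockout libraries lie above the 3 WT libraries, against 24.9% of all tested genes. Knockout replicate 2 (square) is the highest in 9 of the 10 panels, Sdhd being the exception.

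Complex III, which passes electrons from ubiquinol to cytochrome c, had no called subunit among 8, by edgeR or DESeq2. Of all genes in those fits 32.9% and 21.4% were called. Complex III had 4 subunits at an unadjusted p under 0.05, where 5855 of the 13184 tested genes had such a p. Without WT replicate 1 edgeR called 3 higher (37.5%, where 23.1% of all genes in that fit were). Without knockout replicate 2 the median log2 fold change fell from 0.16 to 0.09. Of the 8, 4 (50%) had all knockout libraries above WT, against 24.9% of all tested genes. These 4 were the 2 large core proteins Uqcrc1 and Uqcrc2, the Rieske iron-sulfur protein Uqcrfs1 and the small subunit Uqcrb. Uqcrb was nearest to the threshold, at 55.8, 53.2 and 49.1 CPM in WT and 59.6, 65.0 and 61.9 CPM in knockout (log2 fold change 0.24, SE 0.08, edgeR adjusted p = 0.053). Uqcrc2 was at 96.8, 96.0 and 89.6 CPM in WT and 107, 108 and 107 CPM in knockout (log2 fold change 0.19, SE 0.07, edgeR adjusted p = 0.063). The median of the core and iron-sulfur proteins was 0.19 and that of the 5 small subunits 0.10. Uqcr11, one of the small subunits, had the lowest log2 fold change of the 79 tested subunits, -0.12 (SE 0.16, edgeR adjusted p = 0.58). Its knockout libraries, at 47.6, 68.9 and 47.3 CPM, lay on both sides of its WT libraries, at 58.6, 63.8 and 55.8 CPM. Cytochrome c1 (Cyc1), a complex III subunit whose name is outside the rule, had 104 ± 1.45 CPM in WT against 95.7 ± 3.59 CPM in knockout (SD, n = 3 each; log2 fold change -0.11, edgeR adjusted p = 0.22), with all knockout libraries below WT.

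Complex IV, cytochrome c oxidase, held the most abundant members. Per length, Cox8a had a mean of 386 FPKM over the 6 libraries (counts scaled by exonic length and library total), Cox6a1 351 and Cox4i1 231, where the medians of the 5 complexes ran from 29.3 FPKM for complex I to 65.7 FPKM for complex IV. Of 14 tested subunits 2 were called higher (14.3%, where 14.1% of all tested genes were). All knockout libraries were above WT for 5 (35.7%), against 24.9% of all tested genes, and the median log2 fold change was 0.12. Without knockout replicate 2 the median was 0.05 and none of 15 was called, where 20% of all genes in that fit were. Cox5a (ENSMUSG00000000088, chr9:57521274-57532426, plus strand), which sits on the matrix side of the enzyme, was at 124, 118 and 111 CPM in WT and 139, 155 and 143 CPM in knockout. The libraries did not overlap, and its log2 fold change was 0.31 (SE 0.08; adjusted p = 0.025, edgeR). Leaving out WT replicate 2, WT replicate 3 or any knockout library ended the call, with adjusted p from 0.054 to 0.091, as did scaling to the macrophage list, with 0.13.

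Cox4i1, which is needed early in assembly of the enzyme, and Cox5b, which binds zinc, were higher in every knockout library without being called. Cox4i1 was at 356, 327 and 303 CPM in WT and 367, 429 and 376 CPM in knockout (log2 fold change 0.25, SE 0.10, edgeR adjusted p = 0.11). It overlaps Emc8 on the opposite strand, which had 7268 counts in all against 43341 for Cox4i1, and no source used here says whether the counting used strand. Cox5b had 108 ± 9.32 CPM in WT against 125 ± 5.95 CPM in knockout (SD, n = 3 each; log2 fold change 0.22, edgeR adjusted p = 0.10). Cox8a, the most abundant member per length, had 230.0 ± 19.2 CPM in WT against 249.7 ± 6.60 CPM in knockout (SD, n = 3 each), a difference within the spread of its libraries (edgeR adjusted p = 0.33).

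Several subunits of complex IV exist as pairs of isoforms, of which 1 is widespread and 1 is restricted to muscle, lung, testis or low oxygen. Cox6a2 (ENSMUSG00000030785, chr7:128205435-128206387, minus strand), the heart and skeletal muscle form of subunit VIa, had 10, 17 and 5 counts in WT and 43, 47 and 28 counts in knockout. No library overlapped, and its log2 fold change was 1.82 (SE 0.49; adjusted p = 0.028, edgeR). Its 32 WT counts alone are under the count minimum for a member, and its 118 knockout counts alone are above it. WT replicate 3, with 5 counts, was also under the filter's minimum count of 10. The call, the interval and the permutation test below draw on the same knockout counts that made it a member. They thus give its difference no separate support. The ratio of summed counts was 3.64 (95% interval 2.45 to 5.57, counting error only). The call was lost without any 1 of the knockout libraries, with adjusted p from 0.061 to 0.10. It stayed a trace isoform beside the widespread Cox6a1, with 0.234%, 0.371% and 0.0972% of their summed FPKM in WT and 0.859%, 0.877% and 0.6% in knockout. These shares did not overlap, and the exact permutation test (two-sided) gave p = 0.1, the smallest possible with 3 libraries against 3. Its neighbour Itgad overlaps it on the other strand, with 41 counts in all.

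Ndufa4l2, a relative of Ndufa4 known for its rise in low oxygen, was detected in WT and not in knockout libraries. It had 4, 35 and 21 counts in WT and 0 in each knockout library, too few for the filter. Its 60 counts put it exactly at the minimum for a member, and all came from WT, so its difference is a description with no test. Its share of the pair with Ndufa4 was 0.326%, 2.76% and 1.36% in WT and 0% in knockout. Ndufa4l2 overlaps the end of Shmt2 on the opposite strand, and the counts of Shmt2 were 953, 1861 and 2712 in WT and 1068, 1040 and 932 in knockout. Without knowledge of strand use, reads from the overlap cannot be assigned to 1 of the genes. Fits without a filter, with DESeq2 and without WT replicate 1 called Ndufa4l2 lower, and the fits without each knockout library tested it and did not. Those calls draw on the same WT counts that made it a member, so they give its difference no support.

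The remaining isoforms were low or unmoved beyond their spread. Cox4i2, the lung and low-oxygen form, fell just under the count minimum, with 6, 9 and 12 counts in WT and 4, 2 and 6 in knockout. Its share of the pair with Cox4i1 was 0.269 ± 0.0792% in WT and 0.103 ± 0.0566% in knockout (SD, n = 3 each; exact permutation test, two-sided, p = 0.1). Cox7a1, the muscle form of subunit VIIa, held 8.44%, 5.02% and 4.74% of its pair with Cox7a2 in WT and 5.43%, 6.13% and 5.17% in knockout, and these overlapped (exact permutation test, two-sided, p = 1.0). Cox6b2, the testis form, had 14 counts in WT and 16 in knockout in all. Cox8b, a muscle form, had none in any library.

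**Figure D3:**
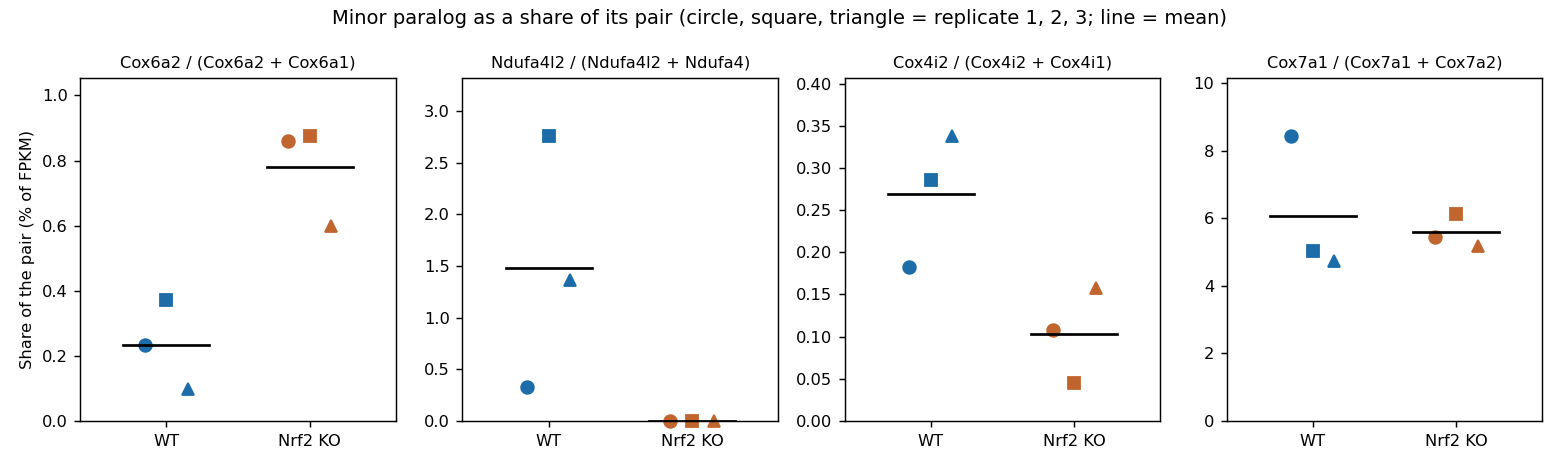
Share of the restricted isoform in the summed FPKM of its pair (vertical axes, percent, from 0) in each library of WT (blue) and Nrf2 knockout (orange), with the mean as a line. Cox6a2 is higher in every knockout library, Ndufa4l2 and Cox4i2 are lower in every one, and Cox7a1 overlaps.

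Complex V, the ATP synthase, stood closest to WT. Of its 17 subunits 1 was called higher (5.88%, where 14.1% of all tested genes were). All knockout libraries were above WT for 3 (17.6%), against 24.9% of all tested genes, and the median log2 fold change was 0.04. Its summed level was 2827 ± 19.1 CPM in WT against 2983 ± 136 CPM in knockout (SD, n = 3 each), a ratio of 1.06, the lowest of the complexes. The median turned negative with library totals (-0.0069), with scaling to the macrophage list (-0.0213), with limma on log2(FPKM + 1) (-0.0083) or log2(FPKM + 0.1) (-0.0106), and without knockout replicate 2 (-0.0115). Atp5k (ENSMUSG00000050856, chr5:108433244-108434448, minus strand), subunit e, which helps to hold ATP synthase dimers together, was at 24, 23.4 and 20.8 CPM in WT and 27.7, 31.5 and 26.7 CPM in knockout. Its libraries did not overlap, and its log2 fold change was 0.33 (SE 0.10; adjusted p = 0.046, edgeR). It was the least stable of the calls: 12 of 16 other settings lost it, and with 1 library left out the adjusted p was between 0.015 and 0.13.

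The catalytic head of the enzyme is made of subunits alpha and beta. Atp5a1, subunit alpha, was at 646, 651 and 651 CPM in WT and 728, 732 and 723 CPM in knockout, so the genotypes did not overlap. Its log2 fold change of 0.16 (SE 0.08) did not pass the test, with an edgeR adjusted p of 0.16. Atp5b, subunit beta, which forms the catalytic sites with alpha, was at 833, 893 and 951 CPM in WT and 881, 888 and 896 CPM in knockout, with an interval from 14.4% lower to 15.9% higher. The 5 subunits of the head and central stalk had a median log2 fold change of 0.09, the 4 of the peripheral stalk 0.09, the 3 genes of the c ring 0.04 (Atp5g1 and Atp5g2 were negative under those 2 scalings and both limma fits) and the 5 small membrane subunits 0.04. In the peripheral stalk Atp5pb, subunit b, was at 181 ± 18.4 CPM in WT against 215 ± 15.6 CPM in knockout (SD, n = 3 each; log2 fold change 0.25, edgeR adjusted p = 0.11). The c ring, the rotor that the protons turn, is encoded by 3 genes for 1 mature protein. Atp5g3 held 92.6 ± 0.0613% of their summed FPKM in WT and 92.2 ± 0.350% in knockout (SD, n = 3 each; exact permutation test, two-sided, p = 0.3).

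The libraries of 1 genotype differed in a way that ran through nearly all subunits. Knockout replicate 2 was the highest of the knockout libraries for 74 of 79 subunits (93.7%), against 37.3% of all tested genes. WT replicate 3 was the lowest of the WT libraries for 59 of 79 (74.7%), against 37.3%. The median log2 deviation of the subunits from their mean over the 6 libraries was 0.00, -0.03 and -0.14 in WT and -0.01, 0.21 and -0.01 in knockout. The median deviations of knockout replicates 1 and 3 were thus next to those of WT replicates 1 and 2. Without knockout replicate 2 the median log2 fold change was 0.03, 46 of 80 subunits were positive, and only Ndufs8 was called (1.25%, against 20% of all genes in that fit). Without WT replicate 1 the number called was 20 of 80 (25%), 19 higher (23.8%) and Ndufa4l2 lower. In that fit 6901 of all 13813 genes were called (50%), 23.1% higher, so the subunits called higher were near the share of all genes.

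The excess in knockout replicate 2 was larger for short genes. The ratio of this library to the mean of the other knockout libraries had a median of 1.26 for the 21 subunits with under 300 coding bases, 1.15 for the 38 with 300 to 600, 1.13 for the 11 with 600 to 1200 and 1.01 for the 9 with 1200 or more. Other protein-coding genes had medians of 1.13, 1.08, 1.03 and 0.964 in the same length classes. Spearman's rho between coding length and this ratio was -0.56 over 79 subunits and -0.39 over 11854 other genes, which describes genes of the same libraries and carries no test. Atp5e, the small epsilon subunit of ATP synthase with 156 coding bases, was at 80.2, 117 and 80.4 CPM in knockout and 103, 85.0 and 73.6 CPM in WT. Sdha, with 1992 coding bases, was at nearly the same level in all knockout libraries. A gradient with length was also seen in WT. The ratio of WT replicate 1 to WT replicate 3 had medians of 1.15, 1.12, 1.08 and 0.992 for the subunits in the same length classes. For other protein-coding genes these were 1.09, 1.03, 1.02 and 0.934. Median log2 fold changes between genotypes were 0.11, 0.09, 0.16 and 0.12 for the subunits in these classes, and 0.03, 0.04, 0.02 and -0.03 for other protein-coding genes. The part of transcript length in the differences between genotypes was not tested.

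**Figure D4:**
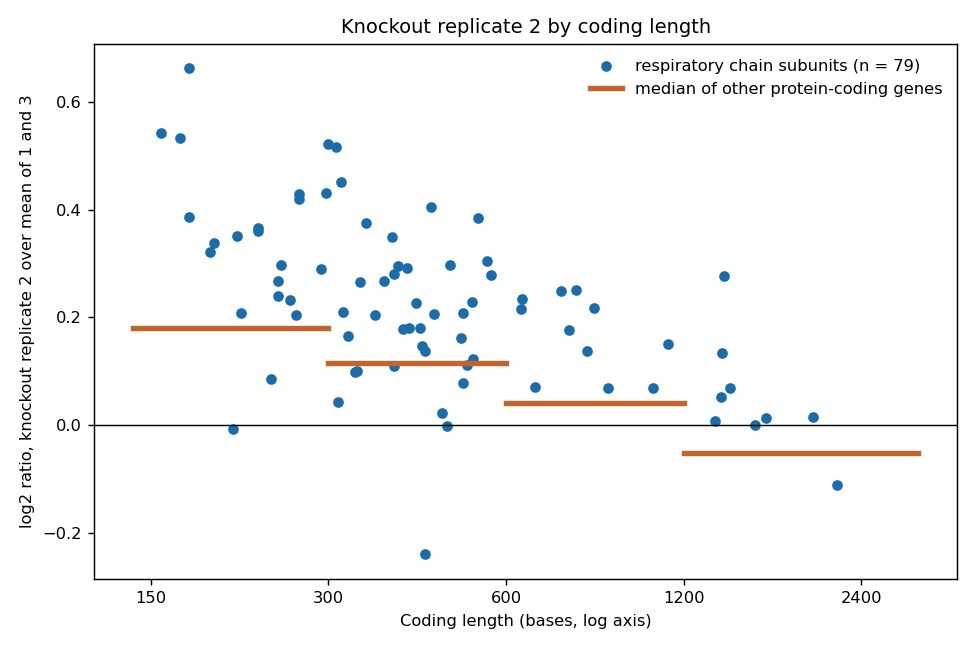
Log2 ratio of knockout replicate 2 to the mean of knockout replicates 1 and 3 (vertical axis) against coding length in bases (horizontal log axis) for 79 subunits (blue points), with the medians of other protein-coding genes by length class (orange bars). Short subunits lie highest, and the 9 subunits of 1200 bases or more have a median ratio of 1.01.

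The subunits encoded by mitochondrial DNA did not share the positive sign. Of 13 genes 10 were tested, none was called in either direction (background 14.1% higher and 18.7% lower), and 1 had a positive log2 fold change. Their median log2 fold change was -0.10, none had an unadjusted p under 0.05 (5855 of the 13184 tested genes had), and DESeq2 called none (21.4% of all genes in its fit). Without knockout replicate 2 edgeR called 1 lower (10%, where 12.4% of all genes in that fit were). Their summed level was 9652, 9627 and 10088 CPM in WT and 9474, 9512 and 9205 CPM in knockout. The ratio of the summed nuclear to the summed mitochondrially encoded subunits was 0.800, 0.792 and 0.718 in WT and 0.833, 0.920 and 0.858 in knockout, with no overlap. Much of the mitochondrial sum was mt-Co1, with means of 5205 CPM in WT and 5104 CPM in knockout. WT means were only 13.1 CPM for mt-Co2, 5.40 for mt-Co3, the positive gene, and 3.95 for mt-Atp6. The untested mt-Nd3, mt-Nd4l and mt-Atp8 were at 0.287, 0.399 and 0.367 CPM. The sum and the ratio thus rest on a part of the genes. These RNAs were read from libraries of an mRNA kit, and how far that kit captures mitochondrial transcripts was not tested. The sources used here also do not say how reads with several matches were counted, and its part in these levels was not tested.

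**Figure D5:**
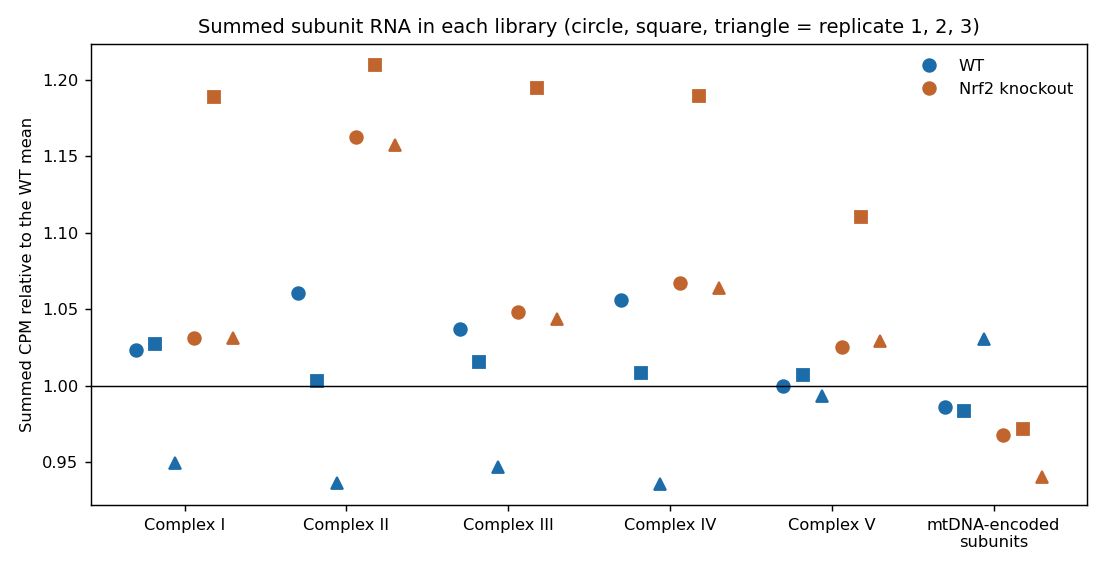
Summed CPM of the subunits of each complex and of the subunits encoded by mitochondrial DNA, in each library relative to the WT mean (vertical axis, not starting at 0), with WT in blue, Nrf2 knockout in orange and circle, square and triangle for replicates 1, 2 and 3. Complex II shows the widest gap between genotypes, knockout replicate 2 stands highest for all 5 complexes, and the mitochondrially encoded sum lies below the lowest WT library in every knockout library.

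Assembly factors build the complexes without being part of them. Among the 8 Ndufaf rows, which encode complex I assembly factors, 1 was called lower and 1 higher. Each is 12.5% of the rows, against 18.7% lower and 14.1% higher of all tested genes. Ndufaf4 was at 12.7, 13.3 and 13 CPM in WT and 8.68, 8.90 and 9.33 CPM in knockout, without overlap. It was 30.8% lower (log2 fold change -0.53, SE 0.10, edgeR adjusted p = 0.0090), and the call was lost only without knockout replicate 1, where the adjusted p was 0.05011. Ndufaf3, its partner in assembly, was at 15.6, 13.3 and 13 CPM in WT and 18.4, 18.1 and 16.8 CPM in knockout (log2 fold change 0.35, SE 0.11, edgeR adjusted p = 0.049). This call was lost under 13 of 16 other settings, including the removal of WT replicate 2 or 3 or of any knockout library (adjusted p up to 0.16). Ndufaf3 also overlaps Impdh2, which had 4615 counts against its 1910. The other 6 Ndufaf genes were not called. None of the 6 pseudogene or noncoding rows was called by edgeR or DESeq2, where 32.9% and 21.4% of all genes in those fits were. Of the 6 rows 1 had an unadjusted p under 0.05 (5855 of the 13184 tested genes had). Limma on log2(FPKM + 1) called 1 higher (16.7%, where 14.8% of all genes in that fit were). All 6 had a positive log2 fold change, with a median of 0.13. Reads of these rows other than Ndufb1-ps may come from near-identical parent genes, since no source used here says how reads with several matches were counted. Ndufb1-ps, with 3838 counts, is typed by the annotation as a long noncoding RNA of a bidirectional promoter, and no row named Ndufb1 matched.

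In a wider list of 45 tested assembly factors for the 5 complexes, 7 were called higher and 4 lower (15.6% and 8.89%, against 14.1% and 18.7% of all tested genes). With 1 library left out, 1 to 12 were higher and 1 to 7 lower, and with scaling to the macrophage list 2 and 1. Cox15, an enzyme of heme A synthesis for complex IV, was at 31.4, 29.5 and 28.7 CPM in WT and 40.1, 44.3 and 40.1 CPM in knockout (log2 fold change 0.48, SE 0.08, edgeR adjusted p = 0.0059). Tmem70, which takes part in assembly of ATP synthase, had a log2 fold change of -0.92 (SE 0.25, edgeR adjusted p = 0.032), and its WT libraries ran from 31.2 to 66.0 CPM in the same order as the summed stromal markers. Of 13 tested regulators of mitochondrial gene expression, 1 was called higher and 4 lower (7.69% and 30.8%, against 14.1% and 18.7% of all tested genes). The 4 lower became 2 with library totals or the replicate block and 0 without WT replicate 2, without knockout replicate 2 or with scaling to the macrophage list. Tfb1m, a methyltransferase of mitochondrial ribosomal RNA, was at 4.60, 4.87 and 4.20 CPM in WT and 8.58, 8.18 and 7.63 CPM in knockout (log2 fold change 0.83, SE 0.14, edgeR adjusted p = 0.0059). Pprc1, a coactivator of the PGC-1 family, was lower, at 57.3, 61.2 and 63.2 CPM in WT and 48.9, 42.0 and 48.4 CPM in knockout (log2 fold change -0.38, SE 0.09, edgeR adjusted p = 0.015). Nrf1 itself, whose motif is marked in the start regions above, had a log2 fold change of 0.16 (SE 0.08, edgeR adjusted p = 0.15).

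Neighbouring mitochondrial pathways were also near their WT level. Of 13 enzyme genes of the citric acid cycle, 2 were called higher and 1 lower (15.4% and 7.69%, against 14.1% and 18.7% of all tested genes), with a median log2 fold change of 0.07. With scaling to the macrophage list none was called, and with WT replicate 2, WT replicate 3 or any knockout library left out 1 was higher and none lower. The 2 were Idh3g and Idh3b, the regulatory subunits of NAD-dependent isocitrate dehydrogenase. Idh3g was at 50.3, 53.2 and 52.8 CPM in WT and 65.9, 66.3 and 66.0 CPM in knockout (log2 fold change 0.34, SE 0.06, edgeR adjusted p = 0.0072). Of 78 genes for mitochondrial ribosomal proteins, 6 were called higher and 2 lower (7.69% and 2.56%, against the same 14.1% and 18.7%), with a median of 0.08. With 1 library left out, 1 to 18 were higher and 0 to 2 lower, and with scaling to the macrophage list 1 and 0.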

How the data were processed

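Raw read counts per gene, as deposited by the authors in 1 table of 55401 genes, were analysed for 3 WT and 3 Nrf2 knockout libraries. Per the submitters' processing notes the build was mm10 and the tools were DESeq2, HISAT2 2.0.1 and HTSeq 0.6.1, with no role for each. Strand and the treatment of multiply matching reads are not given in the sources used here. The table also holds the authors' FPKM. In the deposited table each FPKM equals count over exonic length and column total within 0.005. Coordinates are the table's (mm10), and all 94 members have the same start and end in GENCODE M21.

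edgeR 4.0.16 in R 4.3.3 (filterByExpr with a minimum count of 10, TMM factors, quasi-likelihood test, genotype as the only term) was fitted to all genes, with Benjamini-Hochberg adjustment over the 13184 tested and a call at an adjusted p under 0.05. CPM are TMM-scaled. Percent changes and their 95% intervals come from this fit. Standard errors were taken as log2 fold change divided by the root of its F statistic. Isoform shares were compared with exact permutation tests in SciPy 1.17.1. Intervals on count ratios are exact and cover counting error only. Replicates differed by more than sampling noise (chi-square per degree of freedom 3.24 to 162). The scripts were tested on simulated counts, with changes given to genes drawn from all tested genes. The fit called 16.42% of 1.5-fold, 58.21% of 2-fold and 86.36% of 4-fold changes in the right direction.

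Members and lists were chosen with earlier results of these data known. The subunits named are the called ones, those nearest the threshold, the most abundant, the isoform pairs and the main subunits of each complex. Alternatives were other scaling factors, filters, DESeq2 1.42.0, limma 3.58.1 on log2(FPKM + 1) and log2(FPKM + 0.1), leaving out each library, and a replicate block.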

Additional observations from a re-analysis of the deposited data

How the results depend on the processing

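Over all genes, 4333 were called, 2362 with a minimum mean FPKM of 5, and 2491 to 6901 with 1 library left out. The 6 called subunits became 2 when the libraries were scaled to the macrophage list, 4 to 7 under the other whole-data settings, and 1 to 20 with 1 library left out. They were 20 without WT replicate 1 (25%), 2 without WT replicate 2 (2.53%), 3 without WT replicate 3 (3.8%) and 1 without each knockout library (1.25%). Of all genes, 50%, 20.1% and 27.4% were called without WT replicates 1, 2 and 3. Without knockout replicates 1, 2 and 3 these shares were 18.1%, 20% and 18.6%. Ndufs8 was called in all 16 alternatives (adjusted p from 0.000324 to 0.0378). The median log2 fold change of the subunits stayed positive, from 0.0265 to 0.1652 with 1 library left out. The number of positive subunits was 61, and 59, 53, 63 and 51 with relative log expression, library total, upper quartile and macrophage scaling.

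Subunits near 0 changed sign. With library totals Atp5g1 was at -0.0103, Atp5g2 at -0.0122 and Cox7a1 at -0.0107. With macrophage scaling they were at -0.0336, -0.0331 and -0.0072. With limma on log2(FPKM + 1) and log2(FPKM + 0.1), Atp5g1 was at -0.0083 and -0.0106 and Atp5g2 at -0.0085 and -0.0134. With 1 library left out the lowest and highest values were -0.0559 and 0.1427 for Atp5g1, -0.1024 and 0.1376 for Atp5g2, -0.0995 and 0.0359 for Atp5g3, -0.3536 and 0.0237 for Atp5md, -0.2076 and 0.3663 for Cox7a1, -0.1248 and 0.0572 for Cox7c, -0.0264 and 0.2136 for Ndufa2, -0.2086 and 0.1060 for Ndufb4, -0.0613 and 0.0609 for the share of Cox6b2 in its pair (percentage points), -1.1531 and 0.6986 for the share of Cox7a1 in its pair (percentage points). The cause was not tested.

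Same-numbered libraries correlated at 0.2034, 0.1363 and 0.0778 in their deviations from the genotype means, and the labels give the numbers no meaning, so they were not taken as pairs. With the replicate block 4174 genes and 5 subunits were called, all 5 among the 6, Atp5k being lost. Of the 6 libraries 5 correlated best with their own number, a hint from the data only. Depth limits Cox6a2 and Ndufa4l2 most, with 150 and 60 counts over all libraries.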
